A study of Rattus norvegicus with 19 samples.

Results

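The genes described here code for parts of the motile cilium, the beating organelle that ependymal cells carry on the walls of the brain ventricles. They were chosen by symbol from a list of 42 genes for axonemal proteins, dynein assembly factors and the regulator *Foxj1*. Of the 42, 39 were found among the 32623 genes of the files, and 36 were expressed highly enough to be among the 15440 genes tested. *Foxj1*, *Cfap46* and *Cfap54* had no row under these symbols and were not analysed here. *Rsph4a* had 0 reads in all libraries together, *Spag16* 41 and *Spag6* 90, so these 3 were not tested. A close paralog of *Spag6*, *Spag6l*, is in the files, and how the counting divided reads between the copies was not tested. Of the 36 tested members, 33 stood above the filter level of 0.378 counts-per-million (CPM, the reads of a gene scaled to the size of its library) in each of the 19 libraries.

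RNA of the hippocampus was sequenced from male Sprague Dawley rats of 4 genotypes, made by CRISPR/Cas9 on an outbred background and born as littermates, to study copy number of the segment from *Sult1a1* to *Spn* that corresponds to human 16p11.2. There were 6 wild-type (wt) rats, 4 Del/+ rats with the segment deleted on 1 chromosome, 5 Dup/+ rats with it duplicated on 1 chromosome, and 4 Del/Dup rats that carry both rearrangements. The animals were adult, their exact age is not given in the sources used here, and the carriers come from a deletion line and a duplication line that were crossed. None of the members is a gene of the segment. The labels were checked on 21 genes of the segment: relative to the wt mean, their median log2 level lay between -1.07 and -0.90 in Del/+ libraries and between 0.46 and 0.57 in Dup/+ libraries. Del/Dup libraries (-0.13 to 0.01) lay near wt (-0.04 to 0.03). The library called wt replicate 5 is wt by its description and Dup/+ by its genotype field. Its median over the same genes was -0.04 relative to the other 5 wt libraries, with no gain of the size seen in Dup/+, and it was counted as wt.

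The libraries held 16191192 to 38760645 reads in genes. Multi-mapped reads, those with more than 1 alignment, made up 40.1% to 50.5% in every wt and Dup/+ library and in Del/+ replicate 4, and 57.8% to 76.3% in Del/+ replicates 1 to 3 and all Del/Dup libraries. Del/Dup and a high share therefore cannot be told apart. Summed over the list, genes of hippocampal neurons stood at 4883 to 6182 CPM across the 19 libraries. Genes of the choroid plexus, the secretory tissue that hangs in the ventricles beside the hippocampus, summed to at most 223 CPM in wt libraries (lowest 155), while the highest carrier libraries reached 1965 CPM (Del/+, lowest 177), 754 CPM (Dup/+, lowest 172) and 1853 CPM (Del/Dup, lowest 236). In such bulk tissue, fewer ciliated cells and less RNA per ciliated cell cannot be told apart.

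A motile cilium is built on a ring of doublet microtubules around a central pair. Dynein arms fixed to the doublets slide them against each other, radial spokes and nexin links turn the sliding into bending, and proteins inside the doublets stiffen them. In the brain such cilia are found in tufts on ependymal cells, where they move cerebrospinal fluid, and their genes are switched on together by forkhead and RFX transcription factors.

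RFX factors bind the X-box, a pair of inverted arms, and FOXJ1 binds a forkhead core, so promoters of the members were searched for these letters. RefSeq promoter windows of the rat build GRCr8, 250 bases before to 50 bases after the start of the gene, were held for 34 of the 42 members, 2 of them under a newer symbol. An X-box arm (GTTGCC, either strand) stood in 13 of the 34 windows (38.2%) and in 12.2% of all 27457 windows. The forkhead core GTAAACA, on either strand, stood in 2 of 34 (5.88%) against 3.76% of all windows. A full X-box with both arms, written GTTNCC and GGNAAC with 2 bases between them, stood in 1 of 34 (2.94%) against 0.459% of all. An X-box arm can be part of a full X-box, and a match in these windows is a description, not a bound site. The upstream parts of the 3 tested members with the most matches are shown, to let the place of these letters be seen, with each match in capitals (matches after the start lie outside the stretch shown).
Mlf1, chr2:153958341-153958590 (+): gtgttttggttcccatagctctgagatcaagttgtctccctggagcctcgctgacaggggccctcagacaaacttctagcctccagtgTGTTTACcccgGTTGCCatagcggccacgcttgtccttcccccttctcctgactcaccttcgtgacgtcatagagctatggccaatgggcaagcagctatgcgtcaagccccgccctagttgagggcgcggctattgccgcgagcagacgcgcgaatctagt
Spef2, chr2:60421851-60422100 (-): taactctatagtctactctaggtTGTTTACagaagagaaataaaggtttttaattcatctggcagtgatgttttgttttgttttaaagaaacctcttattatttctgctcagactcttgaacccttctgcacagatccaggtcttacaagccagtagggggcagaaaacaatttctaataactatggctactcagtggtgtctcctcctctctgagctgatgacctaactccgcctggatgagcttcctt
Tekt2, chr5:143907725-143907974 (-): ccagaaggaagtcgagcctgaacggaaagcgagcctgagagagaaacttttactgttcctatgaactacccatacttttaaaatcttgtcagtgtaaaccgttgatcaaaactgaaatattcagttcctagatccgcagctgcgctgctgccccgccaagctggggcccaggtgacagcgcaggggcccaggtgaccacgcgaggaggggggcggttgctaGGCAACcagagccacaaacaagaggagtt
In *Mlf1* the forkhead core, read from the opposite strand as TGTTTAC, lies a few bases before an X-box arm. *Spef2* has the core alone upstream of its start, and in *Tekt2* the capitals mark an arm read from the opposite strand as GGCAAC. Full X-boxes with other letters or another spacing were not searched for. The only full X-box of the form searched was in the gene for the docking protein *Ccdc151*, 33 bases before its start, and is shown with its flanks.
Ccdc151, chr8:28810523-28810552 (-): cgcgggcgGTTTCCTTGGGAACgtgggcgg

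Most members had higher mean levels in the 3 carrier groups than in wt, and no member passed the test in any comparison. The median log2 fold change over the 36 members was 0.34 in Del/+, 0.32 in Dup/+ and 0.31 in Del/Dup (0.09 in Del/+ without Del/+ replicate 3), where the median over all 15440 genes was 0.00, -0.00 and 0.00. In Del/+, 33 of the 36 had a log2 fold change above 0 (91.7%), against 50.2% of all genes. In Dup/+ it was 36 of 36 (100%), against 49.2%. In Del/Dup it was 34 of 36 (94.4%), against 50.3%. These 3 comparisons share the 6 wt libraries, so a low level of members in wt would enter all of them.

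**Figure D1:**
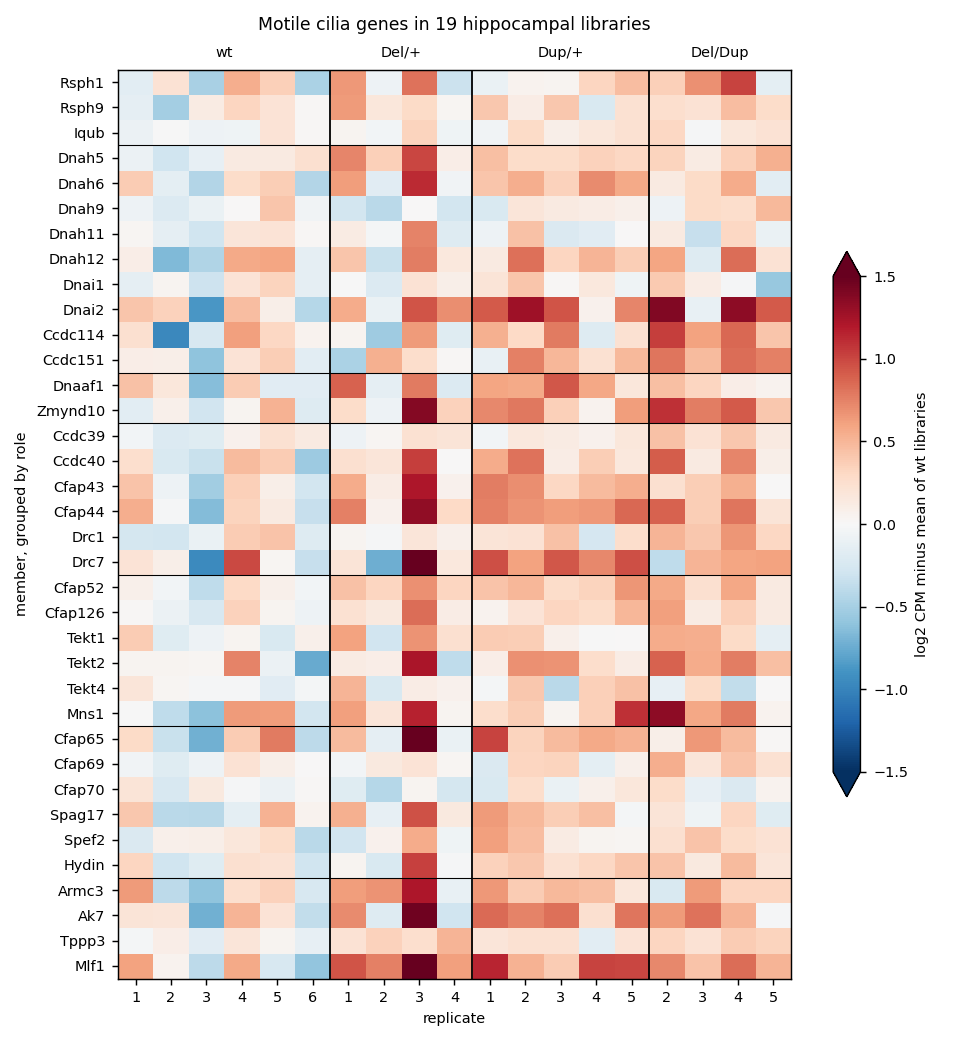
Log2 CPM of each of the 36 tested members (rows, grouped by role) in each of the 19 libraries (columns, by genotype and replicate), relative to the mean of the 6 wt libraries, from -1.5 (blue) to 1.5 (red). Del/+ replicate 3 is red in nearly every row, wt replicate 3 is mostly blue, and Dup/+ and Del/Dup libraries are mostly pale red.

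At an adjusted p under 0.05 in edgeR, 0 of 36 members were called in Del/+ (0.771% of all genes were), 0 in Dup/+ (0.272%) and 0 in Del/Dup (0.0907%). In the test for any difference among the 4 groups 0 were called (0.823% of all genes), with 13 members (36.1%) at an unadjusted p under 0.05 (18.9% of all genes). At an unadjusted p under 0.05 and a higher level, the count was 9 in Del/+ (25% of members, 8.77% of all genes), 11 in Dup/+ (30.6% against 4.46%) and 15 in Del/Dup (41.7% against 8.15%). DESeq2, run as an alternative, called 4 members (11.1%), *Mlf1*, *Tppp3*, *Cfap52* and *Dnah5*, in Del/+, where it called 3.83% of all genes, and in the 4-group test (4.6% of all genes), and 0 elsewhere. Members with every carrier library above every wt library numbered 3 in Del/+ (*Cfap52*, *Tppp3* and *Mlf1*; 8.33%, against 2.23% of all genes). In Dup/+ they were *Dnah5* and *Cfap44* (5.56% against 0.674%), and in Del/Dup *Ccdc151* and *Tppp3* (5.56% against 1.33%). *Ccdc151* passed the filter mainly through carrier libraries, so its separation from wt partly follows from the filter.

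The counts at an unadjusted p under 0.05 moved with the fit and with single libraries, counting either direction. In Del/+ the 9 became 17, 15 and 6 without Del/+ replicate 2, 4 or 3. It was 1 with a term for a high multi-mapped share, 6 with *Ttr* as a covariate and 5 with a replicate block. The 11 of Dup/+ became 5 and 6 when wt replicate 3 or 6 was left out, 7 without Dup/+ replicate 5, 4 with *Ttr* and 5 with the block. The 15 of Del/Dup became 9 without wt replicate 3 or Del/Dup replicate 4, 10 without either of wt replicates 2 and 6 or without Del/Dup replicate 2, 1 with *Ttr* and 2 with the multi-mapped term. The 13 of the 4-group test became 8 without any 1 of wt replicates 3 and 6 and Del/Dup replicates 2 and 4, 6 with *Ttr* and 5 with the block. Some counts also rose. That of Dup/+ was 16 with wt replicate 5 counted as Dup/+, and 14 without wt replicate 4 or Del/+ replicate 3. That of Del/Dup was 18 without wt replicate 4 or Del/+ replicate 3, and that of the 4-group test 18 without Del/+ replicate 3.

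The medians also move with single libraries. Without Del/+ replicate 3, the median in Del/+ was 0.09 and 26 of 36 members were above 0. With a term for a high multi-mapped share, which sets Del/+ replicate 4 alone against the wt libraries, the Del/+ median was 0.01 with 19 of 36 above 0. The same term gave -0.02 and 15 of 36 for Del/Dup, where it rests on the contrast among Del/+ libraries. No wt or Dup/+ library is over the 55% that sets this term, so it cannot bear on Dup/+. With *Ttr* as a covariate the medians were 0.17, 0.21 and 0.14 in Del/+, Dup/+ and Del/Dup, with 28, 34 and 26 of 36 above 0.

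**Figure D2:**
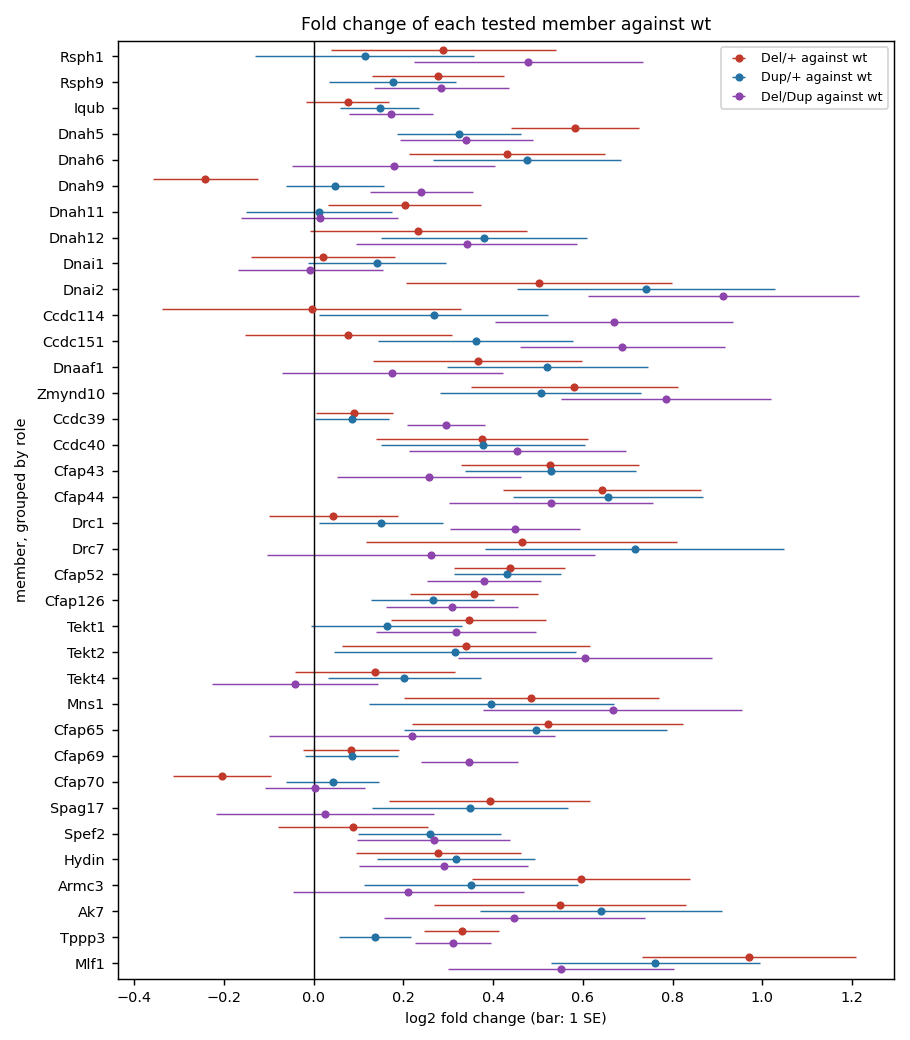
Log2 fold change against wt (x axis, with bars of 1 SE from edgeR) of each tested member (rows, grouped by role) in Del/+ (red), Dup/+ (blue) and Del/Dup (purple). Most points lie right of 0 and overlap between the genotypes, and *Dnah9* and *Cfap70* lie left of 0 in Del/+ (-0.24 and -0.20).

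Del/+ and Dup/+, which differ most in copy number, were also compared directly. The median over the members was -0.00, 16 of 36 were above 0 (44.4%, against 50.3% of all genes), and 0 were called (0.784% of all genes), with 3 (8.33%) at an unadjusted p under 0.05 (13.5% of all genes), which became 7 without Del/+ replicate 3 and 0 without Del/+ replicate 2. With 1 other library left out it was 1 to 3, and 1 without Del/+ replicate 1, Del/+ replicate 4, Dup/+ replicate 2 or Dup/+ replicate 4. The 3 were the dynein gene *Dnah9* (log2 fold change -0.29 ± 0.12 SE, adjusted p = 0.305), *Cfap70* (-0.25 ± 0.11, adjusted p = 0.356) and *Tppp3* (0.19 ± 0.09, adjusted p = 0.343). Without Del/+ replicate 3 the median was -0.24, with 4 of 36 above 0, so the near-zero median rests on that library.

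The radial spokes are T-shaped stalks that pass signals from the central pair to the dyneins. All 3 tested spoke genes, *Rsph1*, *Rsph9* and *Iqub*, had log2 fold changes above 0 in each carrier group, from 0.08 to 0.48, and none had an unadjusted p under 0.05. *Iqub*, with the most reads of the 3, ranged from 6.46 to 7.89 CPM in wt with a median of 6.71. It stood at 7.06, 6.69, 8.63 and 6.56 CPM in Del/+ replicates 1 to 4, at 6.61, 8.38, 7.29, 7.70 and 8.07 in Dup/+ replicates 1 to 5, and at 8.55, 6.75, 7.71 and 7.95 in Del/Dup replicates 2 to 5. The groups overlapped throughout, and the smallest adjusted p of *Iqub* against wt was 0.367, in Del/Dup.

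Outer and inner dynein arms are the motors of the axoneme, and a docking complex fixes the outer arms to the doublets. Of the 9 tested genes of this kind, 7 were above 0 in Del/+, 9 in Dup/+ and 8 in Del/Dup, with medians of 0.20, 0.32 and 0.34. *Dnah5*, a heavy chain of the outer arm, had the smallest p of all members in Del/+. It ranged from 2.71 to 3.98 CPM in wt (median 3.43), and stood at 5.64, 4.31, 6.79 and 3.60 CPM in Del/+ replicates 1 to 4. In Dup/+ it was 4.62, 4.08, 4.06, 4.27 and 4.19 CPM, all above wt, and in Del/Dup it was 4.25, 3.66, 4.32 and 4.90 CPM. Only Del/+ replicate 4 and Del/Dup replicate 3 lay inside the wt range. The log2 fold change was 0.58 ± 0.14 (SE, adjusted p = 0.0605) in Del/+, 0.32 ± 0.14 (adjusted p = 0.50) in Dup/+ and 0.34 ± 0.15 (adjusted p = 0.267) in Del/Dup.

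*Dnah9*, another outer arm heavy chain and the member with the most reads, followed another pattern. It ranged from 35.3 to 54.5 CPM in wt (median 39.1), with wt replicate 5 at the top. Del/+ libraries were at 33.7, 30.8, 41.0 and 33.8 CPM, Dup/+ at 34.9, 46.3, 44.8, 43.9 and 43.2, and Del/Dup at 38.6, 49.9, 48.9 and 57.3. Its log2 fold change was -0.24 ± 0.12 (SE) in Del/+ and 0.24 ± 0.12 in Del/Dup, with an adjusted p of 0.275 and 0.310. Del/+ replicates 1, 2 and 4 and Dup/+ replicate 1 thus lay below every wt library and Del/Dup replicate 5 above every one, and the groups otherwise overlapped.

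The docking genes and intermediate chains had few reads. *Ccdc151*, with the full X-box shown above, had 5 to 14 reads per wt library and ranged from 0.185 to 0.430 CPM there (median 0.344). With this median under the filter level of 0.378 CPM, it entered the test mainly through carrier libraries. In Del/Dup it stood at 0.608, 0.471, 0.623 and 0.588 CPM, all above wt, while Del/+ (0.208 to 0.492) and Dup/+ (0.289 to 0.588) overlapped wt. Its log2 fold change in Del/Dup was 0.69 ± 0.23 (SE, adjusted p = 0.182). *Dnai2*, an intermediate chain of the outer arm, had the highest log2 fold change of all members in Del/Dup, 0.91 ± 0.30 (adjusted p = 0.182), but Del/Dup replicate 3, at 0.366 CPM, stayed under the wt median of 0.480 CPM.

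*Dnaaf1* and *Zmynd10* act in the cytoplasm, where dynein arms are assembled before they enter the cilium. *Zmynd10* ranged from 1.96 to 3.501 CPM in wt (median 2.33). It was at 2.94, 2.30, 6.42 and 3.09 CPM in Del/+, at 4.05, 4.22, 3.11, 2.50 and 3.76 in Dup/+, and at 5.23, 4.19, 4.64 and 3.21 in Del/Dup. The high Del/+ value belongs to replicate 3, and Del/Dup replicate 5 overlapped wt. The log2 fold change was 0.58 ± 0.23 in Del/+, 0.51 ± 0.22 in Dup/+ and 0.79 ± 0.23 in Del/Dup (SE; adjusted p = 0.187, 0.522 and 0.161).

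*Ccdc39* and *Ccdc40* form the ruler that spaces spokes and inner arms along the doublet, *Drc1* and *Drc7* belong to the nexin link, and *Cfap43* and *Cfap44* form a tether of inner dyneins. All 6 were above 0 in each carrier group, with medians of 0.42, 0.45 and 0.37 in Del/+, Dup/+ and Del/Dup. *Ccdc39* ranged from 13.98 to 18.9 CPM in wt (median 16.2). It was at 15.2, 16.4, 18.9 and 18.3 CPM in Del/+, at 15.6, 17.9, 17.5, 16.8 and 18.04 in Dup/+, and at 21.9, 18.6, 21.2 and 17.7 in Del/Dup. Del/+ and Dup/+ thus lay within the wt range and Del/Dup replicates 2 and 4 above it. For Del/Dup the log2 fold change came to 0.29 ± 0.09 SE (adjusted p = 0.160).

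*Cfap44* had one of the 3 smallest p in Dup/+. In wt it ranged from 2.59 to 6.04 CPM (median 4.28), and Dup/+ libraries, at 7.02, 6.61, 6.39, 6.51 and 7.52 CPM, were all above this range. It stood at 6.99, 4.31, 10.5 and 5.08 CPM in Del/+ and at 7.66, 5.34, 7.25 and 4.70 in Del/Dup, where both groups overlapped wt. In Dup/+ the log2 fold change was 0.66 ± 0.21 (SE, adjusted p = 0.328). *Drc7* had the highest value of this group in Dup/+, 0.72 ± 0.33 (adjusted p = 0.552), with all 5 Dup/+ libraries between 1.45 and 1.90 CPM and wt between 0.445 and 1.92.

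Tektins, *Mns1*, *Cfap52* and *Cfap126* line the inside of the doublet microtubules. Of these 6, all were above 0 in Del/+ and in Dup/+, and 5 in Del/Dup, with medians of 0.35, 0.29 and 0.35. *Cfap52* had the smallest p of all members in Dup/+. It ranged from 2.85 to 4.62 CPM in wt (median 3.80), and was at 5.09, 4.68, 6.08 and 4.70 CPM in Del/+, all above wt. Dup/+ libraries were at 5.04, 5.30, 4.54, 4.73 and 5.97 CPM, and Del/Dup at 5.56, 4.45, 5.65 and 4.11. Only Dup/+ replicate 3 and Del/Dup replicates 3 and 5 lay under the highest wt value. The log2 fold change was 0.44 ± 0.12, 0.43 ± 0.12 and 0.38 ± 0.13 (SE) in Del/+, Dup/+ and Del/Dup, with an adjusted p of 0.0901, 0.243 and 0.187.

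*Cfap126*, with the most reads of this kind, ranged from 4.52 to 6.82 CPM in wt (median 5.24). It was at 6.26, 5.95, 9.63 and 5.78 CPM in Del/+, 5.57, 6.16, 6.69, 6.51 and 7.60 in Dup/+, and 8.22, 5.81, 6.90 and 5.88 in Del/Dup. Every carrier library was thus above the wt median, but the groups overlapped (log2 fold change 0.36 ± 0.14, 0.27 ± 0.14 and 0.31 ± 0.15 SE; adjusted p = 0.190, 0.582 and 0.305). *Tekt4* was the lowest of the 6 in Del/Dup, at -0.04 ± 0.19 (adjusted p = 0.934).

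Of the 6 tested genes of the central apparatus, 5 were above 0 in Del/+ and all 6 in Dup/+ and Del/Dup, with medians of 0.18, 0.29 and 0.24. *Cfap70*, with the most reads among them, ranged from 18.2 to 24.7 CPM in wt (median 21.6). It was at 18.96, 16.04, 22.1 and 17.9 CPM in Del/+, at 18.5, 25.9, 20.1, 22.8 and 24.2 in Dup/+, and at 26.1, 19.9, 18.6 and 22.5 in Del/Dup. Del/+ replicates 2 and 4 lay below wt and the other groups overlapped it. For Del/+ the log2 fold change came to -0.20 ± 0.11 SE (adjusted p = 0.328). *Cfap69* had the smallest p of this kind, in Del/Dup (0.35 ± 0.11, adjusted p = 0.169). *Hydin*, a very large central pair protein, was at 27.9 CPM in Del/+ replicate 3 and between 11.1 and 18.97 CPM in the other 18 libraries.

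The 4 remaining members are *Mlf1*, *Tppp3*, a tubulin-binding protein, *Ak7*, an adenylate kinase of cilia, and *Armc3*. All 4 were above 0 in each carrier group. *Mlf1*, whose promoter is shown above, had the highest log2 fold change of all members in Del/+ and Dup/+. It ranged from 0.637 to 1.54 CPM in wt (median 0.929) and was at 1.97, 1.72, 3.26 and 1.56 CPM in Del/+, all above wt. In Dup/+ it was at 2.27, 1.45, 1.31, 2.08 and 2.06 CPM, and in Del/Dup at 1.68, 1.36, 1.83 and 1.45. In each of these latter groups 2 libraries lay inside the wt range. The log2 fold change was 0.97 ± 0.24 (SE, a fold of 1.96, adjusted p = 0.0605) in Del/+, 0.76 ± 0.23 (adjusted p = 0.296) in Dup/+ and 0.55 ± 0.25 (adjusted p = 0.287) in Del/Dup.

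*Tppp3* had the smallest p of all members in Del/Dup and in the test among the 4 groups. It ranged from 9.004 to 11.5 CPM in wt (median 10.2). Del/+ libraries were at 11.8, 12.9, 12.1 and 14.4 CPM and Del/Dup libraries at 12.7, 11.8, 13.3 and 12.8, all above wt, while Dup/+ libraries were at 11.5, 11.9, 11.9, 9.04 and 11.8. The log2 fold change was 0.33 ± 0.08 (SE, adjusted p = 0.0650) in Del/+, 0.14 ± 0.08 (adjusted p = 0.634) in Dup/+ and 0.31 ± 0.08 (adjusted p = 0.139) in Del/Dup, and the adjusted p among the 4 groups was 0.0961.

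**Figure D3:**
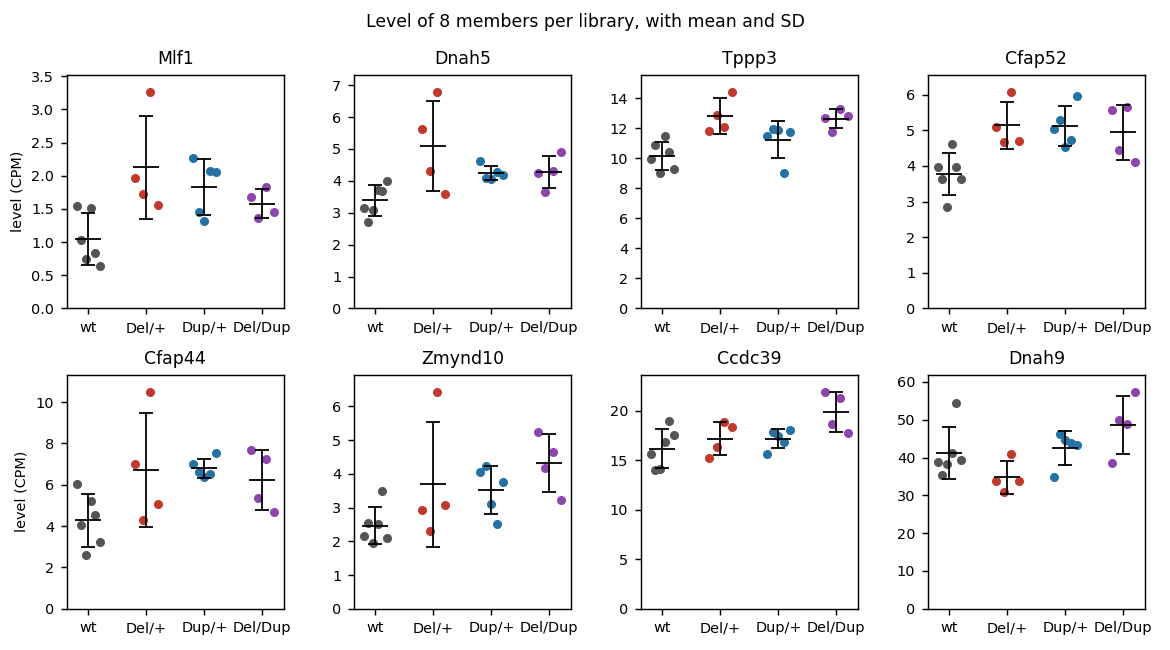
CPM (y axis, from 0) of 8 members in each library (points), by genotype (x axis), with the mean and SD of each group (bars). *Mlf1*, *Tppp3* and *Cfap52* have every Del/+ point above every wt point, and 3 of the 4 Del/+ points of *Dnah9* lie below every wt point.

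The members were then followed from library to library, since their levels varied together inside the groups. On deviations from the group means, 28 of the 36 members had a Pearson r of at least 0.5 with the mean of the other members (median 0.68 across members, 19 libraries). *Cfap43* (0.91), *Cfap44* (0.91) and *Hydin* (0.91) were the closest to this mean. *Tekt4* (0.03), *Tppp3* (0.18) and *Cfap70* (0.30) were the least close, so *Tppp3*, with the smallest p in Del/Dup, varied little with the rest. The libraries share their scaling between members, and these values are a description.

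The mean over the 36 members, as log2 CPM relative to the mean of wt, was -0.33 to 0.30 in wt. It was 0.32, -0.01, 0.79 and 0.05 in Del/+ replicates 1 to 4, 0.37, 0.46, 0.33, 0.25 and 0.38 in Dup/+ replicates 1 to 5, and 0.47, 0.30, 0.50 and 0.19 in Del/Dup replicates 2 to 5. All Dup/+ and Del/Dup libraries were thus above 0 and in part inside the wt range, and the Del/+ libraries were spread most, around replicate 3. All 36 members were above their wt mean in Del/+ replicate 3 and in Dup/+ replicate 2, and 4 of 36 were in wt replicate 3.

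*Ttr* codes for transthyretin, the carrier protein that the choroid plexus secretes into cerebrospinal fluid. Its log2 CPM was -0.01 to 4.78 in wt (median 1.78), 2.38, 1.29, 10.1 and 6.35 in Del/+, 1.55, 8.46, 2.78, 2.51 and 6.47 in Dup/+, and 10.1, 6.59, 8.97 and 5.11 in Del/Dup. All Del/Dup libraries were above all wt libraries, and Del/+ and Dup/+ libraries were found on both sides of the highest wt value. On average Del/Dup exceeded wt by 5.25 (exact permutation p = 0.00952, two-sided, adjusted over 3 comparisons 0.0286), Del/+ by 2.61 (exact permutation p = 0.186, adjusted 0.234) and Dup/+ by 1.92 (exact permutation p = 0.234, adjusted 0.234). In edgeR, with all genes, *Ttr* had an adjusted p of 0.101 in Del/+, 0.522 in Dup/+ and 0.144 in Del/Dup. The adjustment over 3 comparisons leaves out all other genes, and *Ttr* was chosen with earlier results of these data known. All Del/Dup libraries also had a high multi-mapped share, which cannot be told apart from this genotype. In the choroid plexus list, 26, 26 and 27 of the 28 tested genes were above 0 in Del/+, Dup/+ and Del/Dup, with median log2 fold changes of 1.92, 0.96 and 2.24, and 0 called. Per library the mean of this list, relative to wt on the log2 scale, was -0.01, -0.17, 3.25 and 0.74 in Del/+ replicates 1 to 4. In Dup/+ replicates 1 to 5 the mean was -0.18, 2.19, 0.23, -0.19 and 0.85, and in Del/Dup replicates 2 to 5 it was 3.09, 0.98, 2.55 and 0.41, while wt libraries lay between -0.27 and 0.45. Replicates 1 and 2 of Del/+, 1, 3 and 4 of Dup/+ and 5 of Del/Dup were thus inside the wt range, and the other carrier libraries above it.

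**Figure D4:**
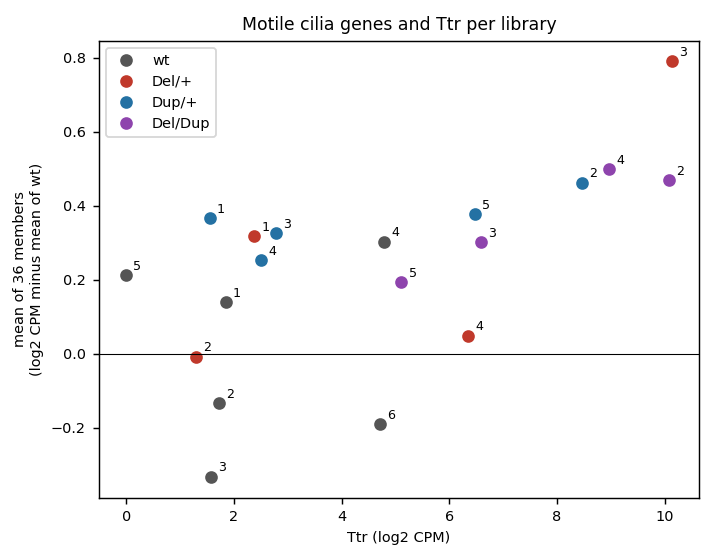
Mean of the 36 members in each library (y axis, log2 CPM relative to the wt mean) against the log2 CPM of *Ttr* (x axis), with points coloured by genotype and marked by replicate. Del/+ replicate 3, at 10.1 on the x axis, is the highest point at 0.79, and wt libraries spread from -0.33 to 0.30 at low *Ttr*.

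Within groups, 34 of the 36 members had a positive r with *Ttr*, with a median Pearson r of 0.41 and a median Spearman rho of 0.34, where the median r over all other genes was -0.01. With p adjusted over all 15439 other genes, 0 relations of members passed at 0.05 (permutation within groups, two-sided; 0.104% of all genes passed). At an unadjusted p under 0.05 there were 8 members (22.2%), all with a positive r, against 4.55% of all genes. Without wt replicate 5 this count was 14 (38.9%, against 5.0% of all genes), and 0 passed over all genes. The smallest p was that of *Cfap52* (r = 0.60, permutation p = 0.00856, adjusted 0.858; rho = 0.57, permutation p = 0.0186, adjusted 1.0). An r of at least 0.5 was reached by 9 members (25% of 36; 2.44% of all genes). Del/+ replicate 3 and Del/Dup replicate 2 lie farthest from the median of *Ttr*, and without them the median r was 0.18 and 0 members reached 0.5. The median r was 0.22 without Del/+ replicate 3 alone and 0.38 without Del/Dup replicate 2 alone, so the lower value goes mainly with the former library. The mean over the members had an r of 0.51 and a rho of 0.41 with *Ttr* within groups, and an r of 0.21 without the same 2 libraries.

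*Dnah11* (r = 0.64, permutation p = 0.0168, adjusted 0.999) and *Cfap126* (r = 0.63, permutation p = 0.0130, adjusted 0.942) had the highest r with *Ttr*. *Mlf1*, *Dnah5* and *Tppp3*, with the smallest p in Del/+, had an r of 0.24, 0.22 and 0.21 (permutation p = 0.390, 0.542 and 0.440). *Armc3* and *Rsph9* were at -0.10 and -0.03, and differences in r between members were not tested. With the mean of the other choroid plexus genes in place of *Ttr*, 17 members (47.2%) had an unadjusted p under 0.05, against 4.74% of all genes, and 0 passed after adjustment over all genes. This count includes Del/+ replicate 3, where both the members and the choroid plexus genes were highest. The part that choroid plexus tissue in the dissected samples has in the members' levels was not tested further.

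Among genes that are no members, the 10 whose levels within groups were most like the mean of the members were *Dnah1*, *Fhad1*, *Daw1*, *Ppp1r32*, *Dynlrb2*, *RGD1562029*, *Krt18*, *Myo7a*, *Dnah7* and *Slc44a4*, with a Pearson r from 0.90 to 0.82 over 19 libraries. *Dnah1* and *Dnah7* code for inner arm heavy chains, *Dynlrb2* for a dynein light chain and *Krt18* for an epithelial keratin. Of a list of 86 other tested motile cilia genes, 37 had an r of at least 0.5 with the mean of the members (43.0%), against 2.54% of the 15404 genes that are no members. In the choroid plexus list it was 24 of 28. It was 5 of 14 among ependymal markers without a role in the axoneme, 3 of 15 among regulators of multiciliation, and 2 of 58 among genes of intraflagellar transport and the primary cilium. Del/+ replicate 3 had the highest mean of the members (0.79) and of the choroid plexus list (3.25). The counts of this paragraph were not repeated without it. No gene of the lists for hippocampal neurons (13 tested), astrocytes (8), oligodendrocytes (9), microglia (7) or vessels and meninges (8) reached 0.5. Only positive r was counted, and the median r of these lists was -0.046, -0.314, -0.457, 0.058 and 0.205 in the same order. Astrocyte and oligodendrocyte genes thus tended to vary opposite to the members, which was not tested.

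**Figure D5:**
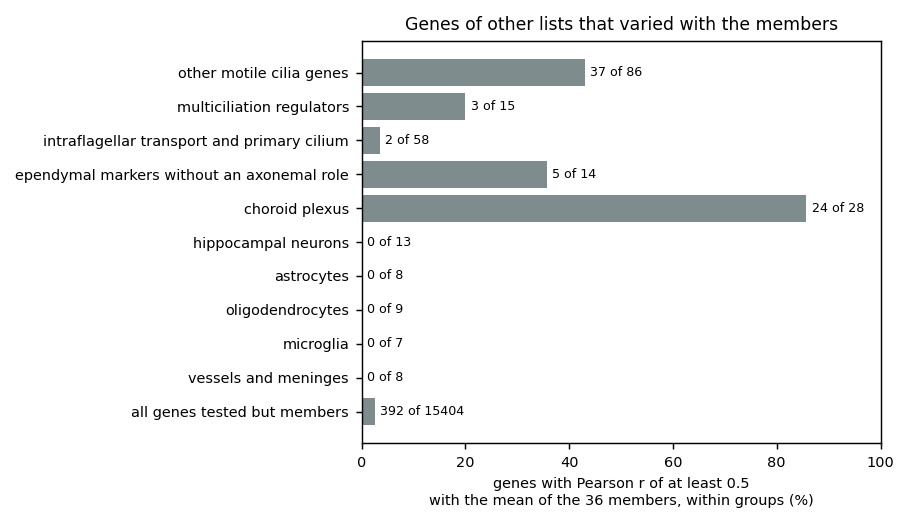
Share of the tested genes of each list (bars, percent, from 0) with a Pearson r of at least 0.5 with the mean of the 36 members, on deviations from group means over 19 libraries. Del/+ replicate 3, the highest in both members and choroid plexus genes, is included. The choroid plexus list (24 of 28) and other motile cilia genes (37 of 86) stand highest, followed by ependymal markers (5 of 14) and multiciliation regulators (3 of 15), where 2.54% of all genes that are no members reach 0.5.

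The other lists were also compared with wt, and 0 genes of any of them were called in a carrier group. Among the 86 other motile cilia genes, 68, 71 and 73 were above 0 in Del/+, Dup/+ and Del/Dup, with medians of 0.21, 0.14 and 0.20. Ependymal markers without an axonemal role had medians of 0.01, 0.03 and 0.03, with 8, 7 and 8 of 14 above 0, and multiciliation regulators had medians of 0.00, 0.03 and 0.03, with 8 of 15 above 0 each time. Genes of intraflagellar transport and the primary cilium had medians of 0.05, 0.02 and 0.07, with 41, 34 and 44 of 58 above 0. Oligodendrocyte genes had medians of 0.28, 0.12 and 0.18, with 9, 8 and 8 of 9 above 0. The medians of neuron genes were -0.10, -0.06 and -0.16, those of astrocyte genes -0.11, -0.02 and -0.11, microglia genes -0.15, -0.11 and -0.05, and genes of vessels and meninges -0.08, -0.07 and -0.12.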

How the data were processed

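The authors prepared stranded total RNA libraries (the labels describe removal of rRNA, while the molecule field and the methods name polyA RNA), sequenced 50-base single-end reads, used Hisat2 for alignment to rat rn6, and applied HTSeq-count to Ensembl genes. The deposited files give raw, whole-number read counts per gene without normalization, 1 file per animal. Whether the counting used strand is not given in the sources used here, so reads of overlapping antisense genes may be included. The summary lines of the counting program were left out of library sizes.

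Genes were filtered with filterByExpr, and library sizes were scaled by TMM. The edgeR package (4.0.16, in R 4.3.3) gave quasi-likelihood F tests from a fit of the 19 libraries together, with 1 mean per genotype and no covariate. P-values were adjusted by Benjamini-Hochberg over 15440 genes and called under 0.05. Log2 fold changes used a prior count of 2, and SE was derived from the F statistic. Relations to *Ttr* were computed on log2 CPM minus group means, with 100000 permutations within groups, and p was adjusted over the 15439 other genes. *Ttr* itself was compared between groups by exact permutation. Alternatives were DESeq2 1.42.0, other scalings, filters and prior counts, a replicate block, the other label of wt replicate 5, *Ttr* or a multi-mapped share over 55% as a term, and each library left out. The fit was tested on simulated counts, as was the correlation.

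Depth was 16191192 to 38760645 reads per library. Over all genes the spread between animals (common biological coefficient of variation) came to 0.101, and counting error adds to this for members with few reads (5 to 14 per wt library for *Ccdc151*). No 2 libraries of a group agreed within sampling noise (chi-square per degree of freedom 3.52 to 59.3 over 37 pairs). The FCROS method of the study was not run here.

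The members and the gene lists were chosen with earlier results of these data known. Every member found may be named, and values per library are given for the member with the most reads in each role and the 3 smallest p of each comparison. Some values of *Ccdc151* and *Dnai2* were added after they were seen. The rule had asked for the highest level per length, but no coding lengths were used here. Promoters are those of RefSeq, build GRCr8, and were shown for the 3 tested members with the most motif matches, with *Ccdc151* added for its full X-box.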

Additional observations from a re-analysis of the deposited data

Results flagged for a closer look

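In each genotype, the highest or lowest library was compared with the rest of its group for 36 members, *Ttr* and the mean of the members (152 groups of 4 to 6 libraries). It stood apart in 10 groups (6.58%), where chance gives about 5%.

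Del/+ replicate 3 stood above the rest of its group for *Hydin* (27.9 CPM, others 11.6 to 14.1), *Cfap126* (9.63, others 5.78 to 6.26) and *Ccdc40* (3.47, others 1.67 to 1.97). Wt replicate 5 stood high for *Dnah9* (54.5 CPM, others 35.3 to 41.1) and *Iqub* (7.89, others 6.46 to 6.97). Dup/+ replicate 4 stood low for *Tppp3* (9.04 CPM, others 11.5 to 11.9) and *Ak7* (2.96, others 4.22 to 4.54). Dup/+ replicate 1 was low for *Dnah9* (34.9 CPM, others 43.2 to 46.3), Dup/+ replicate 5 was high for *Mns1* (4.55, others 2.15 to 2.70), and Del/Dup replicate 2 was low for *Drc7* (0.701, others 1.36 to 1.45).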

How the results depend on the processing

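The number of members called in Del/+ was 0 and became 4 with DESeq2, as did that of the 4-group test, and leaving out 1 library at a time gave 0 to 3 in Del/+ (3 without Del/Dup replicate 2 or 3, where 337 and 281 of all genes were called against 119 with all libraries, 2 without wt replicate 4, with 152 genes, and 1 without wt replicate 1, Dup/+ replicate 4, Del/+ replicate 1 or Del/+ replicate 4, with 61, 118, 261 and 52 genes). The counts of the other comparisons stayed at 0 in all alternatives. A term for a high multi-mapped share moved the median log2 fold change to 0.0113 in Del/+, -0.0245 in Del/Dup and -0.3098 in Del/+ against Dup/+, and the cause was not tested. With *Ttr* as a covariate the medians fell from 0.3423 to 0.1738 in Del/+ and from 0.3091 to 0.1422 in Del/Dup. Leaving out 1 library at a time gave medians from 0.0862 to 0.4528 in Del/+ and from -0.2352 to 0.1073 in Del/+ against Dup/+, both lowest without Del/+ replicate 3. In Dup/+ it gave 0.2692 to 0.3761, and in Del/Dup 0.2755 to 0.3588. The number of members related to *Ttr*, with p adjusted over the tested members alone, was 0 and became 17 with group means kept, 4 with wt replicate 5 counted as Dup/+, 9 with other choroid plexus genes in place of *Ttr*, and 0 to 6 with 1 library left out, 6 being without wt replicate 5. Adjusted over all genes, an alternative chosen after the data were seen, it was 0, also in each of these cases but the other libraries left out, which were not run. With group means kept, where the relation includes group differences in *Ttr*, 19 members (52.8%) and 10.0% of all genes had an unadjusted p under 0.05. With wt replicate 5 as Dup/+, which its level of genes of the segment goes against, it was 15 members (41.7%) and 4.94%. Scaling, filters, prior count and fits of 2 groups moved no call.

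The labels do not say whether equal replicate numbers mark paired animals. Among 24 pairs with the same number 1 had a correlation of deviations over 0.1 (-0.172 to 0.122), and pairs with different numbers were not compared. With a replicate block 0 members were called in each comparison, and the medians were 0.2721, 0.2745 and 0.2953 in Del/+, Dup/+ and Del/Dup. For single members, 3851 values under the alternatives kept their call and direction and moved by less than 1 SE, 16 moved past the threshold, 73 moved by 1 SE or more and 220 changed sign, none of them called. The 220 fall on 69 of 144 pairs of member and comparison, whose log2 fold changes had a median size of 0.172 and a highest size of 0.666. They were most frequent with the term for a high multi-mapped share (48), with *Ttr* as a covariate (20) and without Del/+ replicate 3 (19), and 116 of them came with 1 library left out. Groups of 4 to 6 animals and low counts, down to 213 reads in all libraries for *Ccdc151*, limit the precision.

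The log2 fold changes that changed sign are given next, and the cause was not tested. With the term for a high multi-mapped share the values in Del/+ were *Rsph1* -0.39, *Dnah6* -0.11, *Dnah11* -0.21, *Dnaaf1* -0.26, *Ccdc40* -0.052, *Ccdc151* -0.026, *Cfap65* -0.21, *Spef2* -0.086, *Hydin* -0.052, *Tekt2* -0.46, *Iqub* -0.067, *Mns1* -0.043, *Armc3* -0.19 and *Ak7* -0.36. They were *Rsph1* -0.37, *Rsph9* -0.073, *Dnah5* -0.29, *Dnah6* -0.51, *Dnah11* -0.52, *Dnai1* 0.062, *Dnaaf1* -0.62, *Ccdc40* -0.097, *Cfap43* -0.39, *Cfap65* -0.70, *Cfap70* -0.090, *Cfap126* -0.031, *Spag17* -0.37, *Hydin* -0.14, *Tekt2* -0.39, *Drc7* -0.30, *Iqub* -0.018, *Mns1* -0.0074, *Armc3* -0.77, *Ak7* -0.68 and *Mlf1* -0.017 in Del/Dup. They were *Rsph1* -0.50, *Rsph9* -0.17, *Dnah5* -0.23, *Dnah11* -0.22, *Cfap52* -0.12, *Cfap65* -0.70, *Cfap126* -0.17, *Spag17* -0.25, *Tekt2* -0.77, *Mns1* -0.44, *Zmynd10* -0.19, *Armc3* -0.54 and *Mlf1* -0.23 in Del/+ against Dup/+. With *Ttr* as a covariate the values in Del/+ were *Dnah11* -0.0059, *Dnai1* -0.091, *Ccdc151* -0.015, *Cfap69* -0.010 and *Drc1* -0.012. They were *Dnah11* -0.14 and *Cfap70* -0.041 in Dup/+. They were *Dnah6* -0.078, *Dnah11* -0.35, *Dnah12* -0.057, *Cfap43* -0.035, *Cfap70* -0.20, *Spag17* -0.12, *Hydin* -0.068 and *Drc7* -0.21 in Del/Dup. They were *Ccdc39* -0.019, *Cfap52* -0.029, *Cfap65* -0.051, *Tekt2* -0.090 and *Zmynd10* -0.048 in Del/+ against Dup/+. With wt replicate 5 counted as Dup/+ the values in Del/+ were *Ccdc114* 0.048. They were *Dnai1* 0.067 and *Cfap70* -0.016 in Del/Dup. They were *Ccdc39* -0.021, *Ccdc40* 0.0075, *Cfap43* 0.072, *Cfap44* 0.075, *Cfap65* -0.0075 and *Cfap69* 0.0001 in Del/+ against Dup/+. Without the filter the values in Del/+ were *Ccdc114* 0.0046. They were *Cfap70* -0.0042 in Del/Dup. They were *Ccdc40* 0.012, *Cfap43* 0.013, *Cfap44* 0.0027 and *Cfap69* 0.014 in Del/+ against Dup/+. With library size alone the values in Del/+ were *Ccdc114* 0.011. They were *Dnai1* 0.013 in Del/Dup. They were *Ccdc40* 0.0087, *Cfap43* 0.0074 and *Cfap69* 0.0075 in Del/+ against Dup/+. With the replicate block the values in Del/+ were *Dnai1* -0.032 and *Spef2* -0.0037. They were *Cfap65* -0.019, *Cfap69* 0.0023 and *Tekt2* -0.077 in Del/+ against Dup/+. With a mean of at least 1 CPM the values in Del/+ were *Ccdc114* 0.0038. They were *Ccdc40* 0.0024, *Cfap43* 0.0029 and *Cfap69* 0.0037 in Del/+ against Dup/+. In fits of 2 groups the values in Del/+ were *Ccdc114* 0.0012. They were *Ccdc40* 0.0004, *Cfap43* 0.0016 and *Cfap69* 0.0021 in Del/+ against Dup/+. With RLE size factors the values in Del/+ against Dup/+ were *Cfap43* 0.0003 and *Cfap69* 0.0012. With DESeq2 the values in Del/+ against Dup/+ were *Cfap69* 0.0019.

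Leaving out 1 library at a time changed the sign of the following values, given by their lowest and highest. In Del/+ it gave *Dnah11* -0.035 to 0.33, *Dnai1* -0.041 to 0.095, *Ccdc114* -0.27 to 0.14, *Ccdc151* -0.060 to 0.23, *Spef2* -0.11 to 0.20, *Hydin* -0.085 to 0.41, *Tekt2* -0.12 to 0.54, *Tekt4* -0.0020 to 0.23, *Drc1* -0.0068 to 0.14, *Drc7* -0.17 to 0.71 and *Iqub* -0.016 to 0.13. In Dup/+ it gave *Dnah11* -0.12 to 0.060 and *Cfap70* -0.018 to 0.10. In Del/Dup it gave *Dnah11* -0.095 to 0.12, *Dnai1* -0.16 to 0.16, *Cfap70* -0.093 to 0.080, *Spag17* -0.063 to 0.14 and *Tekt4* -0.15 to 0.063. In Del/+ against Dup/+ it gave *Rsph1* -0.029 to 0.35, *Rsph9* -0.025 to 0.19, *Dnah6* -0.34 to 0.11, *Dnah11* -0.047 to 0.32, *Dnah12* -0.34 to 0.0087, *Dnaaf1* -0.34 to 0.017, *Ccdc39* -0.037 to 0.065, *Ccdc40* -0.29 to 0.12, *Cfap43* -0.31 to 0.14, *Cfap44* -0.31 to 0.14, *Cfap52* -0.081 to 0.066, *Cfap65* -0.49 to 0.22, *Cfap69* -0.069 to 0.067, *Cfap126* -0.11 to 0.18, *Spag17* -0.18 to 0.18, *Hydin* -0.40 to 0.095, *Tekt2* -0.43 to 0.23, *Tekt4* -0.20 to 0.029, *Mns1* -0.18 to 0.30, *Zmynd10* -0.33 to 0.23, *Armc3* -0.0013 to 0.45, *Ak7* -0.56 to 0.13 and *Mlf1* -0.069 to 0.34.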
